A study of Mus musculus with 12 samples.

Results

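Kit, Flt3, Ly6a, Cd34, Lmo2, Meis1, Tal1, Lyl1, Erg and Hhex are 10 genes known from hematopoietic stem and progenitor cells, and their expression was followed in mouse B cell precursors in which the β-catenin pathway was switched on by a mutant allele or by a drug. The members are the rows of the deposited expression table that carry these 10 gene symbols. All 10 were found, each in 1 row, among 47069 genes. The table gives FPKM, sequenced fragments scaled to gene length and to the library total, in 12 bulk libraries that form 4 groups of 3.

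The β-catenin group (libraries 244, 255 and 262) carries Mb1-Cre and the Catnb lox(ex3) allele. Its sorted control group (libraries 242, 249 and 251) is labelled wild type, and the labels do not say whether these cells carry Mb1-Cre. Both were sorted on B220, the CD45 form of the B lineage. The inhibitor group was treated overnight with 40 nM of LY2090314, an inhibitor of the kinase GSK3, which marks β-catenin for destruction. The untreated group is its control. These 6 libraries are wild type, were not sorted, and have the same numbers as the sorted controls. All cells were grown with IL7 in Iscove's medium, starting from hematopoietic stem cells, and none of the β-catenin or sorted control libraries received the drug. Mb1-Cre is expressed from the Cd79a gene and acts in the B lineage, not in the stem cells from which the cultures began. Strain and age are not analysed here. Separate animals are not named behind the libraries of a group. Libraries numbered 242 held 205 to 295 FPKM of Xist and 0 of the Y-linked Ddx3y in all 3 of their groups, while those numbered 249 and 251 held at most 0.176 FPKM of Xist and at least 13.6 of Ddx3y, so each of these groups mixes both patterns. Whether 249 and 251 come from different animals is not stated, and a p-value here covers only the spread of these libraries, part of which may be technical.

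In blood formation, the receptor tyrosine kinases KIT and FLT3 read growth factors on stem and early progenitor cells, and Sca-1 (the product of Ly6a) and CD34 are surface markers by which those cells are isolated. LMO2, TAL1, LYL1 and ERG are parts of a dense network of transcription factors, in which LMO2 bridges DNA-binding partners such as TAL1 or LYL1 with GATA factors, and MEIS1 works with PBX and HOX proteins. Several of these genes are also used later: Lyl1, Erg and Hhex act in the B lineage, Kit remains on mast cells, and Ly6a is induced on many lymphocytes.

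Depth ran between 31.9 M and 49.8 M counted fragments per library. The cell label was checked with 14 defining genes of early and pre-B cells. Their summed FPKM was 93.8 in β-catenin library 244, 2597 in library 255 and 2118 in library 262, and it lay between 7430.5 and 7986 in the sorted controls. Ctnnb1 itself, counted over the whole gene and so blind to the lost exon 3, had 228 to 331 FPKM in the β-catenin libraries and 237 to 284 in the sorted controls, while its target Axin2 was called higher in the β-catenin libraries (log2 fold change 2.53) and in the inhibitor libraries (3.92). Library 244 stands apart, since Pax5 reached 4.87 FPKM there, and it also held both Xist (169 FPKM) and the Y-linked Ddx3y (19.5 FPKM), which no other library did above 1 FPKM of each. Both unsorted libraries numbered 249 stand apart through myeloid genes, with 2908 FPKM of Lyz2 in the inhibitor and 2317 FPKM in the untreated library, against 27.0 to 131 FPKM in the other 4 unsorted libraries. In bulk RNA, fewer cells of a type and less RNA per cell cannot be told apart.

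Across the β-catenin comparison, the 10 genes did not move as a block. Kit, Ly6a and Lmo2 were higher in the β-catenin libraries than in the sorted controls, and Lyl1 and Hhex were lower. Each comparison was fitted with limma on log2(FPKM + 1) over all genes that reached 1 FPKM in 3 or more of its libraries, and a gene was called at a Benjamini-Hochberg adjusted p under 0.05. Of the 10 genes, 3 were called higher, 2 lower, 3 were not called, and Cd34 and Tal1 were too low to be tested. Of all 12813 genes tested, 18.6% were called higher and 17.7% lower, so 36.3% were called in either direction. The median log2 fold change of the 8 tested members was 0.76, against -0.02 over all genes tested. Of the calls over all genes 51.3% were higher, and with quantile normalization or median centring 40.8% or 37.0%; these scalings set the median of all genes at -0.11 and -0.14 and turned no member's direction.

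**Figure D1:**
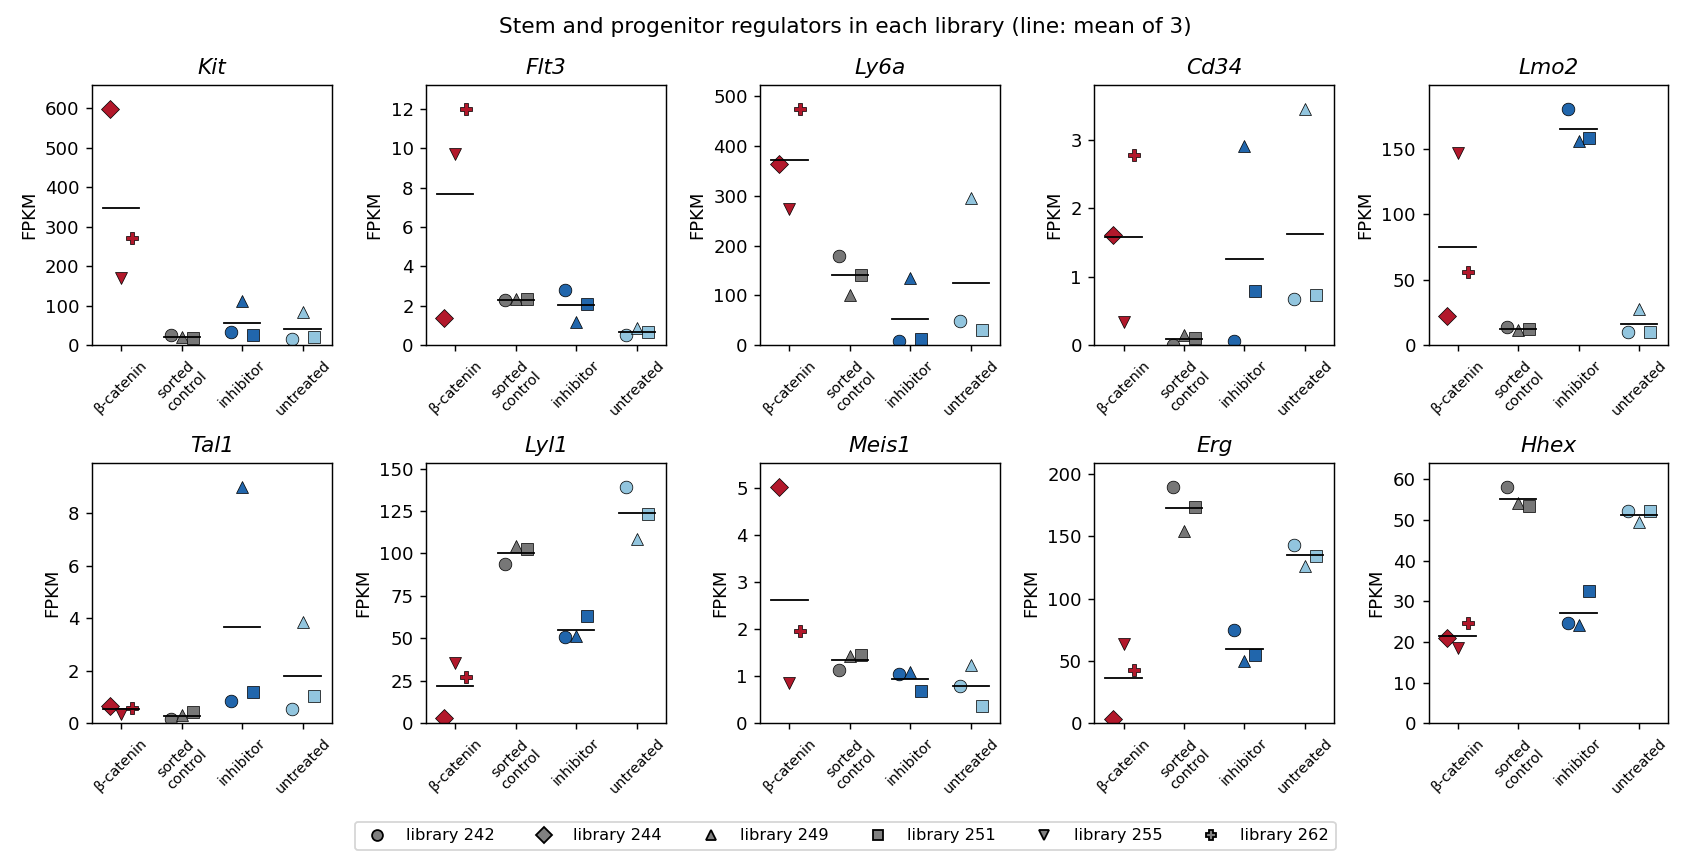
FPKM of each of the 10 genes (vertical axis, 1 panel per gene, with its own scale) in the 12 libraries, by group along the horizontal axis; points are libraries and short lines are group means. Kit stands between 169 and 599 FPKM in the β-catenin libraries and between 17.5 and 24.7 in the sorted controls, Lmo2 between 156 and 180 in the inhibitor libraries and between 9.73 and 27.2 in the untreated ones, and Hhex between 18.5 and 32.5 FPKM in the β-catenin and inhibitor libraries.

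The receptors come first. Kit, the receptor of stem cell factor (ENSMUSG00000005672, chromosome 5, 75574916 to 75656722 on GRCm38), had 599 FPKM in β-catenin library 244, 169 in library 255 and 271 in library 262. The sorted controls had 24.7, 20.3 and 17.5 FPKM in libraries 242, 249 and 251. All 3 β-catenin libraries lay far above all 3 sorted controls, and library 244 was the highest of the 12. The means were 346 ± 224 FPKM in the β-catenin group and 20.8 ± 3.61 FPKM in the sorted controls (SD, n = 3 each), a log2 fold change of 3.81 ± 0.45 (SE, limma, adjusted p = 0.00353). Among genes with at least 1 FPKM, Kit ranked above 94.5% to 98.8% of genes in the β-catenin libraries and above 50.7% to 59.7% in the sorted controls.

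Kit is also a mast cell gene, and the sum of mast cell genes was also higher in the β-catenin libraries. The summed FPKM of 11 mast cell and basophil genes was 419, 66.7 and 531 in β-catenin libraries 244, 255 and 262, and between 2.75 and 48.2 in the sorted controls. This sum was highest in library 262, while Kit was highest in library 244. Of these 11 genes 7 were tested, and 3 were called higher and 0 lower, against 18.6% and 17.7% of all genes. Mcpt8 was at 0 FPKM in all 3 sorted controls, and Fcer1a, Ms4a2 and Prss34 were at 0 in sorted control 242. The mast cell carboxypeptidase gene Cpa3 had 121, 20.2 and 145 FPKM in β-catenin libraries 244, 255 and 262, and 0.938, 12.1 and 9.01 FPKM in sorted controls 242, 249 and 251. Genes of NK and innate lymphoid cells summed to 4948, 1265 and 2273 FPKM in the β-catenin libraries and to 33.2 to 67.7 FPKM in the sorted controls. Of these 13 genes 12 were called higher, beside the same 18.6% of all genes. Prf1, Eomes and Tbx21 were below 1 FPKM in every sorted control and entered the test only through the β-catenin libraries. This count is therefore not read against the share of all genes. The 10 neutrophil and granulocyte precursor genes summed to 631, 13.4 and 31.6 FPKM in β-catenin libraries 244, 255 and 262. They summed to 2.30 to 10.9 FPKM in the sorted controls. Among the β-catenin libraries this sum, like Kit, was highest in library 244. The part of these cell types in the level of Kit was not tested.

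Flt3, the receptor of FLT3 ligand on lymphoid-primed progenitors (ENSMUSG00000042817, chromosome 5, 147330741 to 147400489), was low throughout. Its levels were 1.36, 9.72 and 12.02 FPKM in β-catenin libraries 244, 255 and 262, and 2.28, 2.34 and 2.32 FPKM in sorted controls 242, 249 and 251. Libraries 255 and 262 were above every sorted control and library 244 was below them, so the groups overlapped. The log2 fold change of 1.06 ± 0.64 was not called (limma, adjusted p = 0.236). Without library 244 it was 1.83 with an adjusted p of 0.000327. Flt3 and Erg were the members that gained a call when library 244 was left out, which brought the count of called members to 7.

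Of the surface markers, Ly6a (ENSMUSG00000075602, chromosome 15, 74994877 to 74998031) encodes Sca-1, a GPI-anchored protein that interferons also induce. It had 364, 274 and 475 FPKM in β-catenin libraries 244, 255 and 262, and 179, 101 and 141 FPKM in sorted controls 242, 249 and 251. The groups did not overlap, although the sorted controls already held at least 101 FPKM each. Its log2 fold change of 1.40 ± 0.27 was called (limma, adjusted p = 0.0131). The call ended without sorted control 251 (adjusted p = 0.054) and in a fit of all 12 libraries (adjusted p = 0.307).

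Cd34, a sialomucin of stem cells, of early progenitors and of mast cells (ENSMUSG00000016494, chromosome 1, 194938819 to 194961279), was near the lower limit of the table. It had 1.61, 0.33 and 2.78 FPKM in β-catenin libraries 244, 255 and 262, which come from 166, 36 and 204 fragments. Sorted controls 249 and 251 had 0.142 and 0.0999 FPKM, from 13 and 7 fragments, and sorted control 242 had 0 fragments, which allows a level of up to 0.0276 FPKM (3 fragments, counting error only). The groups did not overlap, but too few libraries reached 1 FPKM for a test.

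Among the transcription factors, Lmo2 (ENSMUSG00000032698, chromosome 2, 103957986 to 103981878) encodes the LIM-domain adaptor of the stem cell complexes. It had 21.9, 147 and 55.8 FPKM in β-catenin libraries 244, 255 and 262, and 13.4, 11.5 and 12.5 FPKM in sorted controls 242, 249 and 251. All β-catenin libraries were above all sorted controls, with library 255 highest and library 244 lowest of the 3, which is the reverse of their order for Kit. The log2 fold change was 2.10 ± 0.63 with an adjusted p of 0.0453 (limma). This call ended without library 262 (adjusted p = 0.111) or without sorted control 242, 249 or 251 (0.112, 0.124 and 0.126), with no filter on low genes (0.09), and by voom on the fragments recovered from the FPKM (0.107). The gene 4931422A03Rik overlaps Lmo2 on the opposite strand and had at most 5.03 FPKM in any library; whether strand was used in counting is not given in the sources used here.

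Lyl1 (ENSMUSG00000034041, chromosome 8, 84701457 to 84704715) encodes a basic helix-loop-helix factor and is the close relative of Tal1. It had 3.22, 35.2 and 27.4 FPKM in β-catenin libraries 244, 255 and 262, and 94.0, 104 and 103 FPKM in sorted controls 242, 249 and 251. All 3 β-catenin libraries were below all sorted controls, and library 244 was the lowest of the 12. Lyl1 was called with a log2 fold change of -2.63 ± 0.80 (limma, adjusted p = 0.0458), and without library 244 the value was -1.66 (adjusted p = 0.000247). The call ended without library 262 (adjusted p = 0.0707) or without sorted control 242, 249 or 251 (0.115, 0.121 and 0.129), with a pseudocount of 0.1 (0.0539), and with no filter on low genes (0.0912). Nfix, which overlaps Lyl1 on the opposite strand, had at most 16.6 FPKM in any library.

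Erg (ENSMUSG00000040732, chromosome 16, 95359169 to 95586593), an ETS factor needed by stem cells and by early B cells in mice, had the same profile. Its levels were 3.49, 63.7 and 42.9 FPKM in β-catenin libraries 244, 255 and 262, and 190, 154 and 173 FPKM in sorted controls 242, 249 and 251. The groups did not overlap. With all libraries the log2 fold change of -2.89 ± 0.98 missed the threshold (limma, adjusted p = 0.063). Without library 244 the value was -1.70 and the adjusted p 0.000904, and without library 255 the adjusted p was 0.0324. It was also called in a fit of all 12 libraries (adjusted p = 0.015) and with the libraries centred on their medians (0.0498).

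Hhex (ENSMUSG00000024986, chromosome 19, 37434810 to 37440731), a homeobox gene required for early lymphoid progenitors in mice, was the steadiest member. It had 21.1, 18.5 and 24.7 FPKM in β-catenin libraries 244, 255 and 262, and 58.1, 54.2 and 53.3 FPKM in sorted controls 242, 249 and 251. Unlike Lyl1 and Erg, library 244 was inside the range of the other β-catenin libraries. Hhex was called with a log2 fold change of -1.33 ± 0.12 (limma, adjusted p = 0.00183). Kit and Hhex were called under every alternative setting of this comparison that was run.

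Beside the levels of Lyl1, Erg and Hhex stand lower sums of B lineage genes in the β-catenin libraries. Of the 14 early and pre-B genes, 3 were called lower and 0 higher, against 17.7% and 18.6% of all genes. None of the 14 was at 0 in any β-catenin library. In libraries 255 and 262 Rag1 had 33.9 and 24.0 FPKM, above the 14.5 to 22.7 of the sorted controls. Dntt had 457 and 330 FPKM there, against 228 to 352. Every other gene of the list was below all sorted controls in both libraries. Among them is Cd79a, from which Mb1-Cre is expressed, with 267 and 246 FPKM against 332 to 700. Any effect of the Cre allele on the level of Cd79a was not tested. In library 244, where Lyl1 and Erg were at 3.22 and 3.49 FPKM, the sum of the 14 genes was 93.8, while Hhex was at 21.1 FPKM. The part of B lineage content in the levels of Lyl1, Erg and Hhex was not tested.

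Meis1 and Tal1 stayed low. Meis1, the homeobox partner of PBX and HOX proteins (ENSMUSG00000020160, chromosome 11, 18879817 to 19018985), had 5.02, 0.856 and 1.97 FPKM in β-catenin libraries 244, 255 and 262, and 1.12, 1.44 and 1.45 FPKM in sorted controls 242, 249 and 251. The groups overlapped, and the log2 fold change of 0.46 ± 0.42 was not called (limma, adjusted p = 0.427). It was 0.0086 without library 244 and 0.86 without library 255, and not called in either case. Tal1 (ENSMUSG00000028717, chromosome 4, 115056426 to 115071755), a factor required for blood formation, had 0.658, 0.356 and 0.572 FPKM in the β-catenin libraries and 0.154, 0.301 and 0.414 FPKM in the sorted controls. These overlapping values lie below 1 FPKM in all 6 libraries.

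Under the GSK3 inhibitor 4 of the 10 genes were called. Lmo2 was higher in inhibitor than in untreated libraries, and Lyl1, Erg and Hhex were lower. Thus 1 gene was called higher, 3 lower, 5 were not called and Cd34 was not tested. This fit did not use the pairing of the libraries by number. With the number as a block, Kit and Ly6a were called as well, as given below. Over all 12685 genes tested, 8.47% were called higher, 9.6% lower and 18.1% in either direction. The median log2 fold change of the 9 tested members was 0.13, against -0.03 over all genes tested.

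Lmo2 had 180, 156 and 158 FPKM in inhibitor libraries 242, 249 and 251, and 10.2, 27.2 and 9.73 FPKM in untreated libraries of the same numbers. The 3 inhibitor libraries were close to one another and far above the untreated ones, of which 249 was highest. The means were 165 ± 13.7 FPKM in the inhibitor group and 15.7 ± 9.93 FPKM in the untreated group (SD, n = 3 each), and the log2 fold change was 3.46 ± 0.37 (limma, adjusted p = 0.00168). Lmo2 ranked above 93.8% to 94.8% of genes with at least 1 FPKM in the inhibitor libraries and above 38.0% to 63.2% in the untreated libraries. Lmo2 and Hhex were called under every alternative setting of this comparison that was run.

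Lyl1, the partner that can take the place of TAL1 in LMO2 complexes, went the other way. It had 50.8, 51.4 and 63.3 FPKM in inhibitor libraries 242, 249 and 251, and 139, 108 and 123 FPKM in the untreated libraries. No inhibitor library reached an untreated one, and the log2 fold change was -1.15 ± 0.13 (limma, adjusted p = 0.00251). Erg had 75.0, 49.8 and 54.6 FPKM in inhibitor libraries 242, 249 and 251 and 143, 126 and 135 FPKM in the untreated libraries. These groups did not overlap either, and the log2 fold change was -1.18 ± 0.16 (limma, adjusted p = 0.00463). In a fit of all 12 libraries, Lyl1 and Erg were not called (adjusted p = 0.228 and 0.318).

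Hhex had 24.8, 24.2 and 32.5 FPKM in inhibitor libraries 242, 249 and 251 and 52.1, 49.5 and 52.3 FPKM in the untreated libraries. The inhibitor libraries were again all below the untreated ones, with a log2 fold change of -0.90 ± 0.13 (limma, adjusted p = 0.00617). Beside these 3 genes, 12 of 14 early and pre-B genes were called lower and 1 higher, against 9.6% and 8.47% of all genes. The 14 genes summed to 2407 to 3887 FPKM in the inhibitor libraries and to 7421 to 9896 FPKM in the untreated ones. None of these 14 genes was at 0 in an inhibitor library, and their part in the levels of Lyl1, Erg and Hhex was not tested.

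Flt3 had 2.79, 1.17 and 2.08 FPKM in inhibitor libraries 242, 249 and 251 and 0.503, 0.873 and 0.642 FPKM in the untreated libraries. The groups did not overlap, yet the log2 fold change of 0.82 ± 0.27 was not called (limma, adjusted p = 0.0856). It was called without inhibitor library 249 (adjusted p = 0.0421) and without both unsorted libraries numbered 249 (0.0376).

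Kit and Ly6a varied more between library numbers than between treatments. Kit had 31.9, 112 and 25.9 FPKM in inhibitor libraries 242, 249 and 251 and 15.8, 83.8 and 21.1 FPKM in the untreated libraries. Library 249 was the highest of both groups, and within each number the inhibitor library was above its untreated partner. The log2 fold change was 0.56 ± 0.76 (limma, adjusted p = 0.67), and -0.08 without inhibitor library 249. Cultures of the same number deviated together, so a fit with the number as a block was also made, and there Kit was called (adjusted p = 0.028).

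Ly6a showed the opposite direction, with 7.82, 136 and 11.8 FPKM in inhibitor libraries 242, 249 and 251 and 47.8, 296 and 30.6 FPKM in the untreated libraries. Each inhibitor library was below the untreated library of its number, while the groups overlapped through library 249. Its log2 fold change was -1.63 ± 1.24 (limma, adjusted p = 0.426), and it was called with the replicate block (adjusted p = 0.00295) and without both libraries numbered 249 (-1.89, adjusted p = 0.00513). With the block, 6 members and 3816 genes were called in this comparison, against 4 members and 2292 genes without it.

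**Figure D2:**
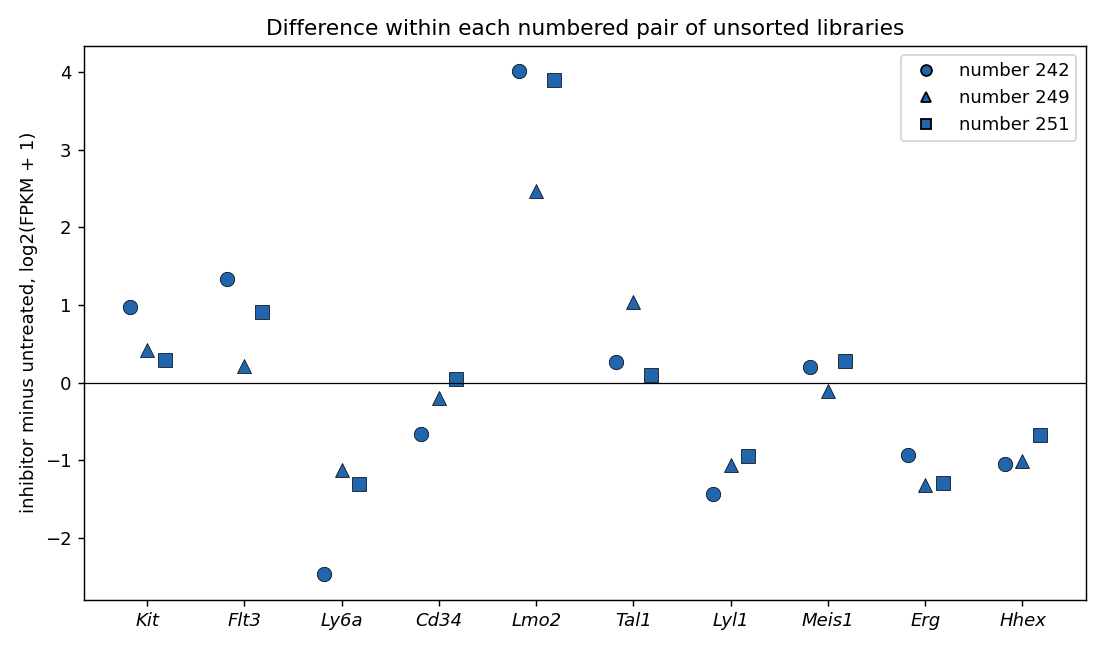
Difference in log2(FPKM + 1), inhibitor minus untreated library of the same number, for each of the 10 genes; each point is 1 of the 3 numbers 242, 249 and 251. All 3 points lie above 0 for Kit, Flt3, Lmo2 and Tal1 and below 0 for Ly6a, Lyl1, Erg and Hhex, and Lmo2 has the highest points, at 2.47 to 4.01.

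The levels of Kit, Cd34 and Tal1 in the unsorted libraries were all highest in the pair numbered 249. Cd34 had 0.0569, 2.90 and 0.794 FPKM in inhibitor libraries 242, 249 and 251 and 0.668, 3.46 and 0.734 FPKM in the untreated libraries. Tal1 had 0.861, 9.0 and 1.18 FPKM in inhibitor libraries 242, 249 and 251 and 0.551, 3.87 and 1.04 FPKM in the untreated libraries. Both genes overlapped between the groups, and Tal1 was not called (log2 fold change 0.47 ± 0.74, limma, adjusted p = 0.717; -0.31 without inhibitor library 249). Meis1 had 1.05, 1.08 and 0.677 FPKM in the inhibitor libraries and 0.784, 1.24 and 0.376 FPKM in the untreated ones (log2 fold change 0.13 ± 0.26, limma, adjusted p = 0.786).

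The pair numbered 249 also had the highest sums of mast cell, neutrophil, monocyte and megakaryocyte genes. The 11 mast cell and basophil genes summed to 1121 FPKM in inhibitor library 249 and 2006 in untreated library 249, against 116 and 178 in the other inhibitor libraries and 251 and 428 in the other untreated libraries. The 10 erythroid and megakaryocyte genes, with which Tal1 is expressed in blood, summed to 1008 FPKM in inhibitor library 249 and 109 in untreated library 249, and to 14.1 to 56.1 FPKM in the other 4. Within that list the platelet gene Pf4 had 833 FPKM in inhibitor library 249, while the globin gene Hbb-bs was at 0 in all unsorted libraries. Of the 11 mast cell and basophil genes 9 were tested and 0 were called. Of the erythroid and megakaryocyte genes 3 were tested and 0 were called, while 18.1% of all genes were called. The part of mast cells, megakaryocytes and myeloid cells in the levels of Kit, Cd34 and Tal1 was not tested.

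**Figure D3:**
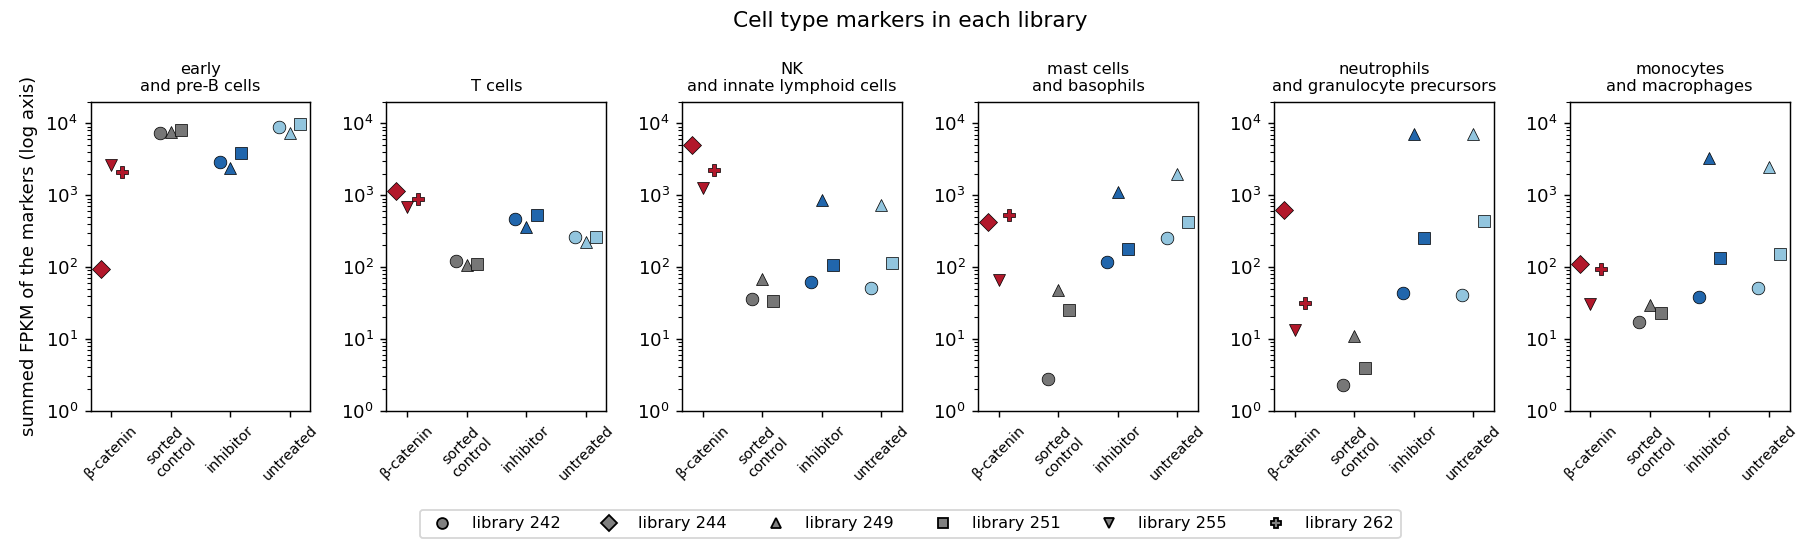
Summed FPKM (log axis) of 6 lists of cell type marker genes in the 12 libraries, by group; each point is 1 library. The early and pre-B sum is lowest in β-catenin library 244 at 93.8 FPKM, and the mast cell and basophil sum is highest in the unsorted libraries numbered 249, at 1121 and 2006 FPKM.

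The mutant and the drug were then compared by the difference between the β-catenin effect and the inhibitor effect in a model of all 12 libraries. No member passed this test: 0 of 10 were called by limma and 0 by voom, with 2 at an unadjusted p under 0.05. These fits did not use the pairing of the unsorted libraries by number, and with it Kit and Ly6a passed, as given below. Over all 13861 genes tested, 9.12% were called, 6.07% with a higher and 3.05% with a lower β-catenin effect. Of these calls 66.5% were higher, and 55.3% or 51.9% with quantile normalization or median centring, which set the median difference at -0.10 and -0.13. Kit came nearest, with an effect higher by 3.25 ± 0.98 under β-catenin than under the inhibitor (limma, adjusted p = 0.0654; 95% interval from 1.07 to 5.43). For Ly6a the difference was 3.03 ± 1.42 (adjusted p = 0.202), and for Lmo2 it was -1.36 ± 0.80 (adjusted p = 0.306; 95% interval from -3.13 to 0.41).

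Several of these values turned on single libraries. Kit and Ly6a both passed without inhibitor library 249 (adjusted p = 0.0222 and 0.0269), Kit and Lmo2 without β-catenin library 255 (0.0413 and 0.0484), and Kit and Ly6a without library 244 and both unsorted libraries numbered 249 (0.00151 and 0.00268). With the numbers of the unsorted libraries as a block, a fit chosen after seeing the data, Kit and Ly6a passed as well (0.00984 and 0.0049). For Lyl1, Erg and Hhex the differences were -1.48 ± 0.87, -1.71 ± 1.07 and -0.43 ± 0.18 (adjusted p = 0.307, 0.335 and 0.159). Without library 244 they were -0.51 for Lyl1, -0.52 for Erg and -0.42 for Hhex, and -0.69 for Lmo2, none of them called. A p above the threshold does not show that the mutant and the drug act alike.

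**Figure D4:**
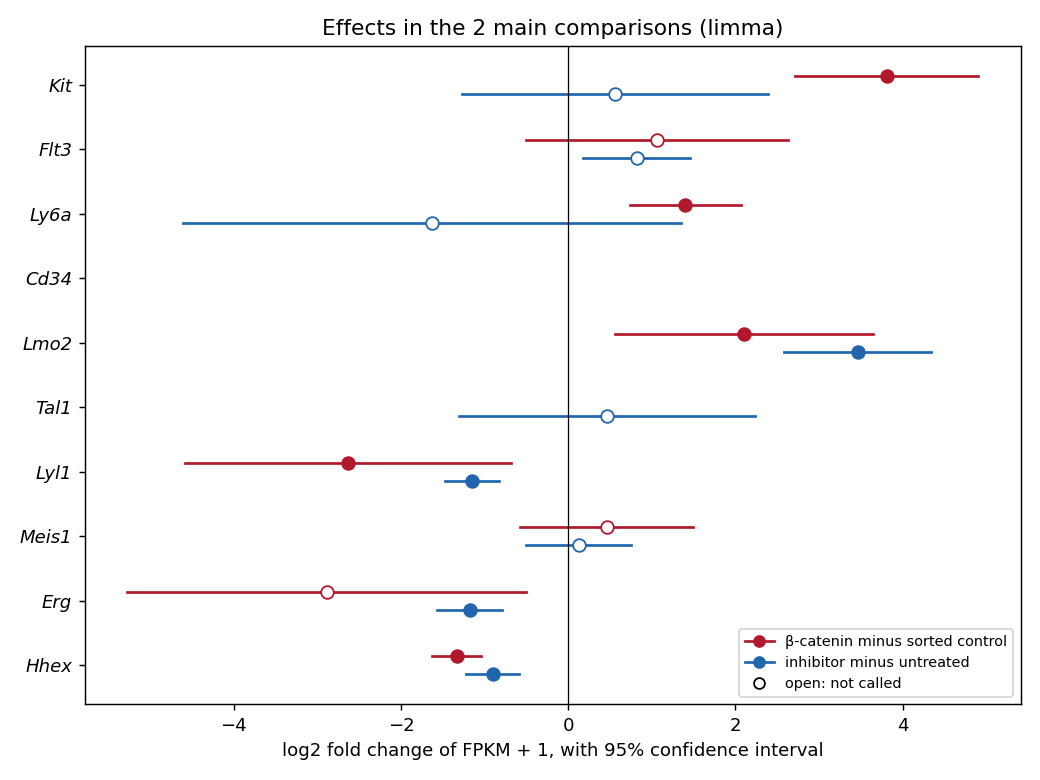
Log2 fold change on log2(FPKM + 1) with its 95% confidence interval (limma), β-catenin over sorted control for 8 of the 10 genes and inhibitor over untreated for 9, with no value for Cd34 in either or for Tal1 under β-catenin; filled symbols are called and open symbols are not. The fits shown use no block for the library number. Kit is the highest value of the β-catenin comparison at 3.81 and Lmo2 the highest of the inhibitor comparison at 3.46. Lyl1, Erg and Hhex are below 0 in both.

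Both control groups are labelled wild type, and by the labels they differ in the sort on B220. Of the 10 genes, 1 was called higher in the sorted controls and 0 lower, and over all 12513 genes tested 4.01% were called higher, 4.29% lower and 8.3% in either direction. Flt3 was that gene, with 2.28, 2.34 and 2.32 FPKM in sorted controls 242, 249 and 251 and 0.503, 0.873 and 0.642 FPKM in untreated libraries 242, 249 and 251. The groups did not overlap, and the log2 fold change was 0.99 ± 0.18 (limma, adjusted p = 0.0268). This call ended without sorted control 242, 249 or 251 (adjusted p = 0.0888, 0.105 and 0.121) or untreated library 251 (0.064), with no filter on low genes (0.0656), and in a fit of all 12 libraries (0.313). Without untreated library 249, Ly6a was called higher (1.81, adjusted p = 0.0159) and Lyl1 lower (-0.38, adjusted p = 0.0491) in the sorted controls.

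Cd34 and Tal1 were too low for this test, with all 3 sorted controls below all 3 untreated libraries for each gene. Cd34 lay between 0 and 0.142 FPKM in the sorted controls and between 0.668 and 3.46 FPKM in the untreated libraries. Tal1 lay between 0.154 and 0.414 FPKM in the sorted controls and between 0.551 and 3.87 FPKM in the untreated libraries. In the same direction, 5 of 7 tested mast cell and basophil genes were called lower in the sorted controls, beside 4.29% of all genes. Of the tested genes, Prss34 was below 1 FPKM in every sorted control and entered only through the untreated libraries. The list summed to 2.75 to 48.2 FPKM there and to 251 to 2006 FPKM in the untreated libraries.

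The order of levels within a group, compared on the per-length FPKM scale, also differed between groups. In the β-catenin group Ly6a (371 ± 101 FPKM) and Kit (346 ± 224) led and did not differ beyond their spread, followed by Lmo2 (74.8 ± 64.5), Erg (36.7 ± 30.6), Lyl1 (22.0 ± 16.7) and Hhex (21.4 ± 3.12), whose ranges overlap. In the sorted controls the order was Erg (173 ± 17.7 FPKM), Ly6a (140 ± 38.8), Lyl1 (100.4 ± 5.59), Hhex (55.2 ± 2.55), Kit (20.8 ± 3.61) and Lmo2 (12.5 ± 0.97), and among these neighbours Ly6a overlapped both Erg and Lyl1 in range. In the inhibitor group Lmo2 (165 ± 13.7 FPKM) came first, then Erg (59.8 ± 13.3), Kit (56.7 ± 48.3), Lyl1 (55.2 ± 7.05), Ly6a (51.7 ± 72.6) and Hhex (27.2 ± 4.65), where the ranges of the 4 genes after Lmo2 overlap, and Kit and Ly6a also overlap Hhex. In the untreated group Erg (135 ± 8.71 FPKM), Ly6a (125 ± 148), Lyl1 (124 ± 15.4) and Hhex (51.3 ± 1.55) were followed by Kit (40.2 ± 37.9) and Lmo2 (15.7 ± 9.93), where Ly6a overlapped all of them but Lmo2, Erg overlapped Lyl1, and Kit overlapped Hhex and Lmo2. Flt3, Meis1, Tal1 and Cd34 had means below 10 FPKM in all 4 groups (each ± is the SD of 3 libraries).

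Promoters are shown for Lyl1 and Hhex, which were lower in both comparisons, and for Erg, which was called lower under the inhibitor. That of Flt3, which was called in neither main comparison, is shown as well. β-catenin acts on DNA through TCF and LEF proteins. Their core motif was searched in the promoters of all members that have an entry, shown or not. Each run is the 250 bases before a RefSeq start of the gene on its own strand, for GRCm38.p6, where 8 of the 10 genes have an entry. That start can differ from the gene coordinates given above, and the Hhex window ends inside the span given for Hhex. The strands are + for Lyl1 (chr8:84701207-84701456) and Hhex (chr19:37434591-37434840) and − for Erg (chr16:95586594-95586843, the promoter farthest upstream of its 3) and Flt3 (chr5:147400490-147400739). Capitals mark the core CTTTGA on either strand (read as TCAAAG on the other).
Lyl1: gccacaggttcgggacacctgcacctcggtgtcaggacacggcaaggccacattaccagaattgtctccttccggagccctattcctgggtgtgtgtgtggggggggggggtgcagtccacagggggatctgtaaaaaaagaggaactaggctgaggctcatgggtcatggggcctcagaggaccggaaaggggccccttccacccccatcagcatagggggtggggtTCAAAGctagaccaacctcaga
Hhex: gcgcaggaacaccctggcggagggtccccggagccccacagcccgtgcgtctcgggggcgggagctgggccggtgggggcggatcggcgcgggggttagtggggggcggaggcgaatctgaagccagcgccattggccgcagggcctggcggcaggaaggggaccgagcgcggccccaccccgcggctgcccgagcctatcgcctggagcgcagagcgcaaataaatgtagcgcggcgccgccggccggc
Erg: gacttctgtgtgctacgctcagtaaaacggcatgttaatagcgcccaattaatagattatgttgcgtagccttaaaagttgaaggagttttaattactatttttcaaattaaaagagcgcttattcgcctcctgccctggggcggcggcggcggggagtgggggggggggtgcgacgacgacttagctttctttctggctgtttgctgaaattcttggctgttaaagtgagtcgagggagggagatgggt
Flt3: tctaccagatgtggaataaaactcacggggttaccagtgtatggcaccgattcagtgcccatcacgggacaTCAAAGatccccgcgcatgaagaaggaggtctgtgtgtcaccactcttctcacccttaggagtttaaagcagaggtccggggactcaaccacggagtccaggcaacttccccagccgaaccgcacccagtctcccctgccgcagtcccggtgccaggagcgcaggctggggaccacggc
The core stood 22 to 17 bases before the start of Lyl1 and 179 to 174 bases before that of Flt3. It also stood 201 to 196 bases before 1 of the 2 starts of Tal1. The windows of Hhex and Erg, and those of Kit, Cd34 and Meis1, do not contain these letters. Of 32851 promoters of the same length in the table, 13.8% hold the core. A match is a description of the letters and not of binding. The ETS core CCGGAA, which 12.03% of promoters hold on either strand, occurred at 2 positions before Lyl1 and at 1 before Meis1.

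Likeness of profiles was described by Pearson's r of log2(FPKM + 1) over the 12 libraries among 11458 genes; the points share groups and depth, so no p is given. The profile nearest to Kit was that of Nebl (r = 0.993), and the nearest to Lmo2 was that of Arhgap23 (r = 0.986). Lyl1 was most like Blnk (r = 0.995) and Btk (r = 0.991), which carry the pre-B receptor signal, and Erg was most like Cplx2 (r = 0.994). Tal1 was most like Hacd4 (r = 0.991) and Trem2 (r = 0.986). Among the members themselves Lyl1 and Erg were the closest pair (r = 0.965), and Kit ran against Lyl1 (r = -0.862).

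The partners of LMO2 and TAL1 were counted as a list. Of 19 listed genes of these complexes 13 were tested in the β-catenin comparison, and 3 were called higher and 2 lower, a share near the 36.3% of all genes called (median log2 fold change 0.23, against -0.02 over all genes tested). Gata3, the GATA factor of T cells and innate lymphoid cells, had 39.5, 15.8 and 26.0 FPKM in β-catenin libraries 244, 255 and 262, and 0.132, 0.42 and 0.0342 FPKM in sorted controls 242, 249 and 251 (log2 fold change 4.48 ± 0.33, limma, adjusted p = 0.00124). Of 12 T cell genes 9 were tested and 8 were called higher, beside 18.6% of all genes tested. Cd3d, Cd247, Cd8a, Cd8b1 and Bcl11b were below 1 FPKM in every sorted control. They entered the test only through the β-catenin libraries, so this count is not read against the share of all genes. The 12 genes summed to 678 to 1133 FPKM in the β-catenin libraries and to 106 to 122 FPKM in the sorted controls. The part of T cells in the level of Gata3 was not tested. Ssbp3 and Ssbp2, which encode single-stranded DNA binding proteins of the LDB1 complex, were higher by 1.45 and 1.14. Tcf3, which encodes the E protein E2A, was lower, with 164 ± 62.6 FPKM in the β-catenin group and 393 ± 20.4 FPKM in the sorted controls (SD, n = 3 each).

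In the inhibitor comparison 14 partners were tested, 2 were called higher and 1 lower, and the median was -0.12, against -0.03 over all genes tested. The share of all genes called there was 18.1%. Tcf12, which encodes the E protein HEB, had 341, 220 and 362 FPKM in inhibitor libraries 242, 249 and 251, and 54.6, 59.4 and 72.4 FPKM in the untreated libraries. The log2 fold change of Tcf12 was 2.27, while Tcf3 was lower by a log2 fold change of -0.95, with 236 ± 48.7 FPKM in the inhibitor and 454 ± 83.3 FPKM in the untreated group (SD, n = 3 each). Runx1, the runt factor of stem cells and B cells, was higher by 0.68.

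Of 13 MEIS, PBX and HOX genes, 10 were tested under β-catenin, and 3 were called higher and 1 lower, again near the 36.3% of all genes. Under the inhibitor 7 were tested and 1 was called, Pbx2, which was lower (-0.55), beside 18.1% of all genes called. Meis3, a relative of Meis1, was higher (2.19), with 6.81, 2.57 and 4.54 FPKM in β-catenin libraries 244, 255 and 262 and 0.0165, 0.513 and 0.0514 FPKM in sorted controls 242, 249 and 251. Hoxa5 and Hoxa7 were higher by 1.48 and 0.86. The medians of the tested genes of this list were 0.15 under β-catenin and 0.06 under the inhibitor, against -0.02 and -0.03 over all genes tested, which are also the medians beside which the next lists stand.

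The genes around KIT and FLT3 were tested in 15 of 16 cases in each comparison. Under β-catenin 7 were called higher and 2 lower (median 0.24), and under the inhibitor 2 were called higher and 3 lower (median 0.05). Of all genes tested, 18.6% were called higher and 17.7% lower under β-catenin, and 8.47% higher and 9.6% lower under the inhibitor. Flt3l, the ligand of FLT3, had 55.9, 31.2 and 45.7 FPKM in β-catenin libraries 244, 255 and 262, against 3.07, 6.98 and 6.09 FPKM in sorted controls 242, 249 and 251 (log2 fold change 2.85 ± 0.32, limma, adjusted p = 0.00318). The part of other cell types in the level of Flt3l was not tested. Stat5a, a transducer of KIT and IL7 receptor signals, was higher in both comparisons (1.39 and 1.43), and the Src-family kinase gene Lyn was lower in both (-1.25 and -0.99). Sh2b3, which encodes the adaptor LNK that restrains KIT signalling, was lower in both as well (-0.99 and -1.01).

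Other transcription factors of stem cells split evenly. Of 15 listed, 9 were tested under β-catenin with 2 called higher and 2 lower, and 10 under the inhibitor with 2 called higher and 2 lower. The shares of all genes called in either direction were 36.3% and 18.1%. Gfi1, which encodes a transcriptional repressor of stem cells and of lymphoid and myeloid progenitors, was higher in both comparisons (2.17 and 1.48), and Mycn was lower in both (-2.43 and -1.62). Gfi1b was lower under the inhibitor (-2.46). The medians of the tested genes were -0.18 under β-catenin and 0.13 under the inhibitor.

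Of 18 other progenitor surface genes, 12 were tested in each comparison. Under β-catenin 6 were called higher and 2 lower (median 0.43), and under the inhibitor 2 were called higher and 2 lower (median 0.01). The shares of all genes called in either direction were 36.3% and 18.1%. Cd27, a TNF receptor family member of multipotent progenitors and lymphocytes, had 71.1, 95.4 and 108 FPKM in β-catenin libraries 244, 255 and 262 and 7.23, 4.58 and 4.56 FPKM in sorted controls 242, 249 and 251. It had 20.8, 27.7 and 16.7 FPKM in inhibitor libraries 242, 249 and 251 and 3.58, 6.57 and 3.64 FPKM in the untreated libraries. Cd27 and the hyaluronan receptor gene Cd44 were called higher in both comparisons (3.85 and 2.03 for Cd27, 1.21 and 1.20 for Cd44). Ly6c2, a gene of the same family as Ly6a, was higher under β-catenin (6.03). It also had 79.8 FPKM in inhibitor library 249 and 121 in untreated library 249, against 0.343 to 3.38 FPKM in the other unsorted libraries. The part of other cell types in the levels of Cd27 and Ly6c2 was not tested. The 2 genes called lower under β-catenin were the myeloid genes Cd33 (-1.06) and Csf1r (-1.04), the second of which was chosen after its value was seen. Under the inhibitor they were Spn (-0.83), which encodes CD43, and Ly6e (-0.56).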

How the data were processed

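RNA of 12 bulk libraries was analysed from 1 deposited table of FPKM, which the authors computed. Per the submitters' processing notes the tools were HISAT2, HTSeq and Cufflinks and the build GRCm38 (mm10), with no settings named. Of 47069 gene IDs, 46488 (98.8%) matched GENCODE M21, which gave symbols and coordinates. FPKM divides by gene length and library total, so depth (31.9 M to 49.8 M counted fragments) enters through the spread of low genes. Whole fragments were recovered from the FPKM steps for 25186 genes and failed for 0; 100% of their values were rebuilt within a relative tolerance of 1e-08. The lowest mean chi-square per gene between libraries of a group was 16.8, so no pair within a group agreed to within sampling noise.

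Each comparison was fitted with limma 3.58.1 (lmFit, eBayes with trend; R 4.3.3) on log2(FPKM + 1), 2-sided, in its 6 libraries, and the difference of effects in a 4-group model of all 12. Fold changes on this scale understate low genes. Scripts ran in Python 3.11.15 (numpy 2.4.6, pandas 2.3.3, matplotlib 3.10.9). Fits were tested on simulated data. Voom on recovered fragments called 4099, 2183, 965 and 615 genes in the β-catenin, inhibitor, control and difference comparisons, against 4656, 2292, 1039 and 1264 by limma on FPKM.

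Members and lists were chosen with earlier results of these data known. Named genes were the members, up to 4 called genes per list with the largest change in each main comparison, the nearest profiles, and Ctnnb1, Tcf7 and Axin2; 1 gene that this rule names is not reported here. Csf1r, marker genes, Xist, Ddx3y and Lyz2 were named after their values were seen. The numbers were taken to pair inhibitor with untreated libraries, as deviations from group means correlated at r = 0.609 (242), 0.77 (249) and 0.36 (251), all above 0.1. Inhibitor library 251 correlated slightly more with untreated library 242 (r = 0.383), so these values do not single out the pair numbered 251. Alternatives were another pseudocount (0.1), another filter (none, or 5 FPKM), another scaling (quantiles or medians), robust eBayes, voom, all 12 libraries, the replicate block, and leaving out libraries. No column was left out.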

Additional observations from a re-analysis of the deposited data

Results flagged for a closer look

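Without a block, no member passed the test of the difference between the β-catenin effect and the inhibitor effect. With the numbers of the unsorted libraries as a block, Kit and Ly6a passed. Values here are the β-catenin effect minus the inhibitor effect, ± SE, from the fit without the block. In that fit 10 of 32 other named genes from the lists and checks passed, beside 9.12% of all genes (limma on log2(FPKM + 1), adjusted p under 0.05 over 13861 genes). Most of these genes were named for a large change in 1 of the comparisons set against each other, so their share is not read against that of all genes. Among the partners of LMO2 and TAL1, Gata3 differed by 4.60 ± 0.73 (adjusted p = 0.00641) and Ssbp3 by 1.13 ± 0.24 (adjusted p = 0.0198). Flt3l, the ligand of FLT3, differed by 3.18 ± 0.61 (adjusted p = 0.0143), with an effect of 2.85 under β-catenin and -0.33 under the inhibitor. Sla2, an adaptor that dampens receptor signalling in lymphocytes, differed by 2.23 (adjusted p = 0.00408), and Pik3cd, the leukocyte PI3-kinase subunit p110δ, by 0.78 (adjusted p = 0.0381). Spn, which encodes the sialomucin CD43, was called higher under β-catenin (0.77) and lower under the inhibitor (-0.83), a difference of 1.60 (adjusted p = 0.00588). Ly6e, a family member of Ly6a, moved the same opposite ways (0.32 and -0.56), a difference of 0.88 (adjusted p = 0.0109). Cd27 differed by 1.81 (adjusted p = 0.0181), Pbx2 by 0.50 (adjusted p = 0.0419) and Tcf7, the β-catenin partner TCF-1, by 2.74 (adjusted p = 0.0241).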

How the results depend on the processing

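Each library left out in turn gave 1826 to 5552 called genes and 2 to 7 called members in the β-catenin comparison, 1158 to 2302 genes and 4 to 5 members in the inhibitor comparison, 24 to 1248 genes and 0 to 3 members between the control groups, and 494 to 2006 genes and 0 to 2 members in the difference. With no filter, 3 members were called in the β-catenin comparison, 352 genes and 0 members between the controls and 808 genes in the difference; a filter of 5 FPKM left 0 members between the controls. With all 12 libraries, 2 members were called for the inhibitor and 522 genes and 0 members between the controls, and voom called 615 genes in the difference. The replicate block gave 3816 genes for the inhibitor. Between the controls r was 0.143 (242), 0.123 (249) and 0.000511 (251), so not above 0.1 for every number. There the replicate block gave 354 genes and 0 members. Voom there made 59.0% of calls higher, against 48.3%. In the difference, the replicate block of the unsorted libraries gave 2 members, and leaving out library 244 and both unsorted libraries 249 gave 2222 genes and 2 members. Directions turned in 17 results, none of them called. Leaving out each library in turn, the log2 value in the inhibitor comparison ran from -0.085 (without inhibitor library 249) to 1.27 for Kit, from -0.31 (without the same library) to 0.95 for Tal1 and from -0.053 (without untreated library 251) to 0.30 for Meis1. Between the controls it ran from -1.0 to 0.17 for Kit and from -0.40 to 0.29 for Lmo2, each highest without untreated library 249. In the difference it ran from -0.22 (without library 262; -0.076 without 255) to 1.02 for Flt3, from -0.71 to 0.55 for Tal1 (0.55 without inhibitor library 249, 0.12 without untreated library 242) and from -0.12 (without library 244) to 0.73 for Meis1. There Flt3 was also at -0.19 (pseudocount 0.1), -0.016 (quantile normalization) and -0.41 (voom), Tal1 at 0.074 (pseudocount 0.1) and 0.38 (voom). With library 244 and both unsorted libraries 249 left out, Tal1 was at 0.0045 and Meis1 at -0.24. The cause was not tested. Levels near 1 FPKM, those of Cd34, Meis1 and Tal1, limit what could be tested.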
